A study of Gallus gallus with 2 samples.

Results

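Whole-brain RNA of dark-reared male chicks was compared with that of dark-reared female chicks. Both groups were newly hatched Cobb broiler chicks with no further genotype or treatment in the labels, kept in the dark as the controls of a filial imprinting experiment in which other chicks were trained for 1 h. The chicks were sexed by RT-PCR, and equal amounts of RNA from 8 chicks per sex were combined, so that each sex is 1 pool of 8 animals. The dark-reared pools are 2 of the 4 pools of the study. They carried Cy5 on a pair of 2-colour oligonucleotide arrays, 1 array per sex, whose other dye, Cy3, carried the trained pool of the same sex. Both dark-reared pools carried the same dye, so the comparison runs across arrays. With a single pool and array for each sex there is no replicate error, no test and no p-value, and a difference between the arrays cannot be told apart from a difference between the sexes.

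Sex in birds is set by the Z and W chromosomes: males carry a pair of Z chromosomes, and females carry a Z and the small W. In chickens the Z is not silenced as a whole in either sex, and dosage compensation is known to be partial, so that many Z genes are expressed at a higher level in males. The W holds few genes, mostly diverged copies of Z genes, of which HINTW is a multicopy relative of the Z gene HINT1 and is transcribed in females. The brain also takes up sex steroids, and aromatase, encoded by CYP19A1, makes oestrogen within it. Chromosomes and positions below are those of galGal2, the assembly printed on the array, and refer to the probe. The array carried no annotation of exons or UTRs that was used here. A gene is called Z-linked below where most of its nearest genes in the current assembly GRCg7b, up to 20 on each side, have probes on galGal2 Z.

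Of 42034 probes, 27948 exceeded background clearly in females and 27897 in males, none was saturated, and the 27134 that did so in both pools were kept. Levels are log2 normalized signals, and differences are male minus female on that scale. A level describes 1 probe and is not set against that of another probe. The lowest level well above background was 5.91 in females and 5.89 in males. The 10 spike-in transcripts, added to both samples and printed 32 times each, differed by 0.071 to 0.15, all slightly higher on the male array. The 22116 autosomal probes had a median difference of -0.0080 and a SD of 0.15, and the central 95% of them lay between -0.27 and 0.27. All 12 pan-neuronal markers found on the array were measured in both pools, with differences from -0.14 (NEFM) to 0.17 (KCNC1). Of 18 choroid plexus, ependymal and pituitary markers on the array 10 were measured, with 6 differences below 0 and 4 above. They ran from -0.26 (AQP1) to 1.13 (PRLR, a Z-linked gene), with POMC at -0.03. In the trained pools AQP1 differed by -0.43. The pituitary hormone genes PRL, GH, CGA and TSHB and the choroid plexus gene TTR were not well above background in both pools.

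Large differences were more often toward males, and probes on Z were past the threshold at a higher share than autosomal probes. At least 1.5-fold higher levels were seen for 324 probes in males (1.19% of the kept probes) and for 78 in females (0.287%). Among probes that galGal2 places on autosomes the counts were nearly equal, 53 higher in males (0.240%) and 51 in females (0.231%). Of the male-biased ones, 4 lay in the first 1000000 bases of chromosome 14 and 3 in the next 1000000. HDHD2, in the latter, is Z-linked in GRCg7b, and whether the other probes there belong to Z was not tested. Males were the higher sex for 80.6% of all probes past 1.5-fold, a share that was 66.8% with the scanner software's processed signals and 62.0% with plain background subtraction, where more dim probes passed. On chromosome Z, 114 of 565 probes were at least 1.5-fold higher in males and 2 in females, and the median difference was 0.26. Of 4377 probes on unplaced sequences, 132 were at least 1.5-fold higher in males and 25 in females. At 2-fold, 50 of all probes were higher in males (0.184%) and 23 in females (0.0848%), and 12 autosomal probes were higher in males (0.0543%) and 11 in females (0.0497%). None of the 17 mitochondrial probes reached 1.5-fold. Counted as genes by the brightest kept probe, 115 of 7529 were higher in males (1.53%) and 16 in females (0.213%), and at 2-fold 14 (0.186%) and 2 (0.0266%).

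**Figure D1:**
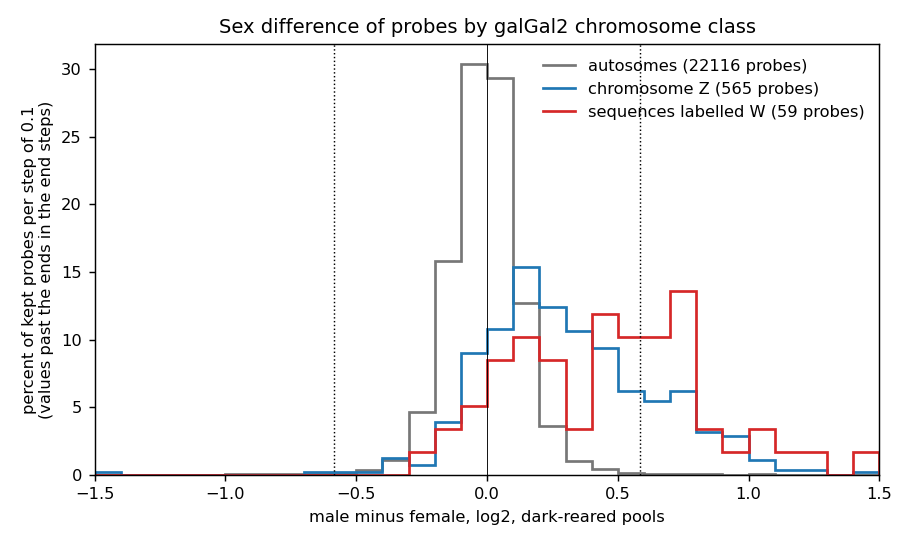
Distribution of the male-minus-female difference (log2, horizontal axis) as the percent of kept probes per step of 0.1 (vertical axis), for autosomal probes, probes on Z and probes on sequences labelled W in galGal2; dotted lines mark 1.5-fold. Autosomal probes centre near 0, and probes on Z and on sequences labelled W are shifted toward males, with medians of 0.26 and 0.49. Of the 18 named genes labelled W, 17 are Z-linked in GRCg7b.

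The largest difference was that of HINTW. Its brighter probe had a level of 14.94 in females and 6.04 in males, where it was not well above background, so that the transcript was at least 476-fold higher in the female pool. A dimmer HINTW probe stood at 9.06 in females and 5.86 in males, at least 8.98-fold higher in females. HNRNPKL, a heterogeneous nuclear ribonucleoprotein K-like gene, was at 10.35 in females and 5.95 in males, at least 21.1-fold higher. UBE2R2L, a ubiquitin-conjugating enzyme-like gene, was at 7.31 and 5.88, at least 2.67-fold higher in females. Each bound sets the male value to the higher of its own signal and the lowest male signal well above background. These 3 genes were the only ones past 1.5-fold among the 91 measured in females but not in males. None of the 88 genes measured in males but not in females reached that bound, and their highest was 1.36-fold for CIITA, the activator of MHC class II genes.

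Other female-enriched signals came from probes with no gene symbol in RefSeq. Probe A_87_P017901, on an unplaced sequence, was at 11.78 in females and 6.83 in males, a difference of -4.95. A_87_P030887 differed by -3.96 and A_87_P027999 by -2.74. A probe for the hypothetical gene LOC417353, A_87_P023036, is placed at chr18:4073715-4073774 in galGal2 and read 11.13 in females and 7.24 in males. It had the largest difference of any kept probe placed on an autosome, 14.7-fold. A_87_P002818, described as female-associated factor FAF, was at 8.37 in females and 6.14 in males. The array describes the dimmer HINTW probe as FAF too, so this probe may not stand for a separate gene. In the trained pools these 5 probes also read higher in females, with differences of -4.49, -2.82, -1.60, -3.62 and -1.55 in the order given. The value of A_87_P002818 there is a bound, as its male signal was not well above background.

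Other W-related probes separated the sexes less, or not at all. The probe of SPIN1L, a spindlin gene that galGal2 places on W, gave a dim 6.83 in both pools, a difference of -0.01. Males carry no W, so its male signal cannot be read as a W transcript, and what the probe detects was not tested. LOC427010, described as similar to the zinc finger RNA binding protein, differed by -0.39. LOC426031, described as similar to Nipped-B-like, differed by -0.62 on its only probe above background, 1.54-fold higher in females. FET1, a female-expressed transcript of the embryonic gonad, was not well above background in either pool.

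Z-linked genes were higher in males as a class but by unequal amounts. The 339 measured Z-linked genes had a median difference of 0.35, which is 1.28-fold, and their middle 50% lay between 0.15 and 0.66. A higher level in males was seen for 309 of them, 104 reached 1.5-fold, and none was 1.5-fold higher in females. The 7048 genes with autosomal neighbours had a median of -0.01, and 11 of them were at least 1.5-fold higher in males and 15 in females. With the scanner software's processed signals, which add no offset, the Z-linked median was 0.56. The median was 0.35 for the 311 Z probes above the median brightness and 0.20 for the 254 below it, but this order turned with the background correction, to 0.35 and 0.51 with the processed signals and 0.38 and 0.50 with plain subtraction. Along Z, the medians of 7 bins of 5 Mb ranged from 0.18, for the bin that starts at 5000001, to 0.38, and the share of probes past 1.5-fold ranged from 17.8% to 23.6%.

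**Figure D2:**
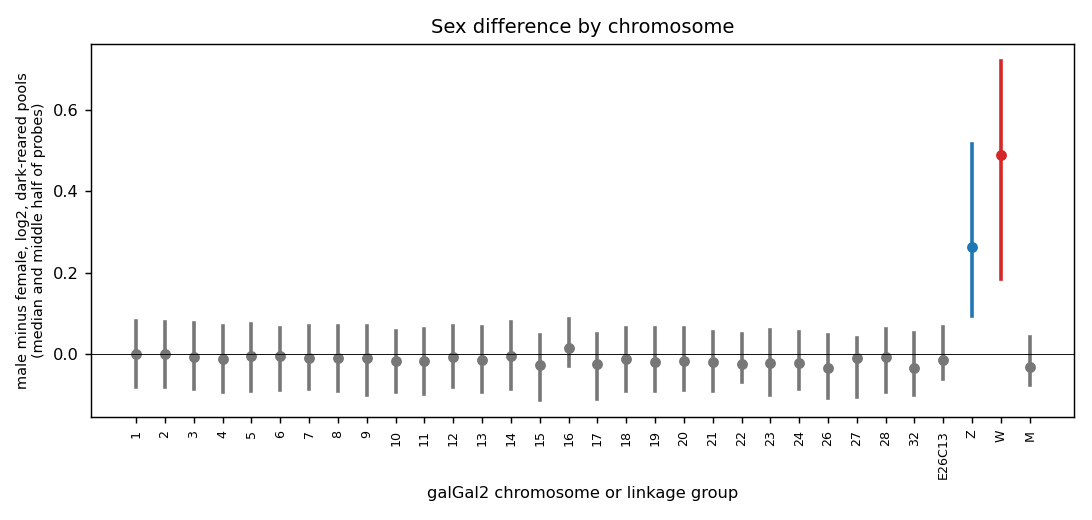
Median (point) and middle 50% (bar) of the male-minus-female difference (log2) of kept probes for each galGal2 chromosome or linkage group. The autosomal medians lie between -0.033 and 0.016, with Z and the sequences labelled W standing apart above them.

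Among Z-linked genes of hormone and peptide signalling, PRLR, the prolactin receptor, read 7.69 in females and 8.82 in males, 2.18-fold higher in males. CRHBP, which binds and sequesters corticotropin-releasing hormone, read 11.49 and 12.42, 1.91-fold higher in males. HSD17B4, a peroxisomal enzyme of fatty acid and steroid oxidation, read 12.59 in females and 13.55 in males, a difference of 0.96. GRP, the gastrin-releasing peptide, differed by 0.53. Smaller differences were seen for NTRK2, the BDNF receptor, at 0.35 and for GHR, the growth hormone receptor, at 0.21. Differences of Z-linked receptors and ligands therefore ran from inside the autosomal range to past 2-fold.

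Other Z-linked genes, named mostly by the rank of their difference, had varied roles. MRPL50, a mitochondrial ribosomal protein, had levels of 10.60 in females and 11.88 in males, the largest difference of a named Z-linked gene at 1.28. NDUFS4, a subunit of respiratory complex I, had 10.39 and 11.41, a difference of 1.02. XPA, a damage-binding protein of nucleotide excision repair, had 12.66 in females and 13.66 in males. FANCG, of the Fanconi anaemia repair complex, differed by 1.00 and CCNH, a cyclin of the transcription factor TFIIH, by 1.03. TMOD1, which caps actin filaments, had 9.27 and 10.46, and NUDT2, a nucleotide hydrolase, 10.48 and 11.43. GNE, the first enzyme of sialic acid synthesis, differed by 1.12. Of the ribosomal protein genes on Z, RPS6 and RPS23 differed by 0.63 and 0.65, while RPL37 differed by 0.10.

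A few Z-linked genes were as high or higher in females. CD274, an immune checkpoint ligand, had 7.62 in females and 7.28 in males, a difference of -0.34. F2RL1, a protease-activated receptor, was at -0.26 and CHRNA8, a neuronal nicotinic receptor subunit, at -0.21. UBAP2, a ubiquitin-associated protein with a copy on each sex chromosome, had -0.49 on its brightest probe and 0.20 on its other probe. These values were taken by rank from the low end of the Z genes or of a list, and all but UBAP2 and CD274 lie within the central 95% of autosomal probes.

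Genes of the Z that keep a W partner are known for coding dose-sensitive regulators. Of 12 measured, 5 were at least 1.5-fold higher in males and none in females, and the median was 0.46. Over all 339 Z-linked genes, 104 (30.7%) were at least 1.5-fold higher in males and none in females, with a median of 0.35. SMAD2, a transducer of TGF-beta signals, read 10.76 in females and 11.64 in males, and CHD1, a chromatin remodeller long used for sexing birds, 8.79 and 9.59. ST8SIA3, a sialyltransferase of the brain, differed by 0.84, TXNL1, a thioredoxin-like protein, by 0.81 and GOLPH3, a Golgi protein, by 0.66. UBE2R2 differed by 0.52, SUB1 by 0.40 and SPIN1 by 0.28, while SMAD7 was at -0.11. RPL17 was at 0.04, ZFR at -0.05 and the brightest UBAP2 probe at -0.49. RPL17, ZFR and SMAD7 were dim, at 6.13, 6.59 and 6.88 in females, where the background correction compresses differences. SMAD7 was at 0.22 in the trained pools. ZFR could not be called Z-linked by the neighbour rule used here. The probe that the array names HINT1, and the RefSeq table names HINT2, read 14.32 in females and 15.00 in males. That 1.60-fold difference is opposite in sign to that of HINTW.

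Genes with 2 or more kept probes gave a check within each array pair. Every kept probe was at least 1.5-fold higher in males for AK6, an adenylate kinase (3 probes, 0.61 to 0.84), for TRAPPC13, a subunit of a vesicle tethering complex (2 probes, 0.89 and 0.93), and for SLF1, of the DNA damage response (2 probes, 0.60 and 0.86). All 3 genes are Z-linked. Between the brightest and the second probe the sign was shared by 92.6% of 27 Z-linked genes and by 54.7% of 666 autosomal genes. Of all 339 measured Z-linked genes 91.2% were above 0, against 46.0% of 6537 autosomal genes. Probes of different Z-linked genes would therefore also mostly share a sign, and the shared sign says little about agreement between probes of a gene. Pearson's r between them was 0.50 and 0.16. Probes of a gene share the RNA pool and the array.

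The sequences labelled W in galGal2 held 59 kept probes with a median of 0.49, of which 25 were at least 1.5-fold higher in males and none in females. Of the 18 named genes there, 17 are Z-linked in GRCg7b, and the exception is SPIN1L. MBLAC2 read 8.86 in females and 10.14 in males, and FAM172A 11.00 and 11.91. Of the autosomes, chromosome 14 had the highest share of male-biased probes, 1.10%, although its median was -0.0045. The first 1000000 bases of chromosome 14 had a median of 0.53 over 10 probes, with 4 past 1.5-fold, where the central 95% of 818 such bins ran from -0.075 to 0.079. HDHD2, a phosphatase-like gene at chr14:1457949-1458008, read 10.38 in females and 11.21 in males and is Z-linked in GRCg7b.

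Autosomal differences past 1.5-fold were few with the background correction used here. The 53 and 51 autosomal probes higher in males and females became 377 and 340 with the processed signals. With plain subtraction they became 541 and 535. By the brightest kept probe, 11 of 6537 galGal2 autosomal genes were at least 1.5-fold higher in males (0.168%) and 14 in females (0.214%), and 2 genes reached 2-fold in each direction (0.0306% each). Leaving HDHD2 out, 10 male-biased genes had autosomal neighbours in GRCg7b. Nearly all rest on 1 kept probe. The exception, FBN1, which codes for the microfibril protein fibrillin-1, differed by -0.72 on its brightest probe and by as little as -0.04 on another of its 3 probes, and its median over probes was -0.22.

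**Figure D3:**
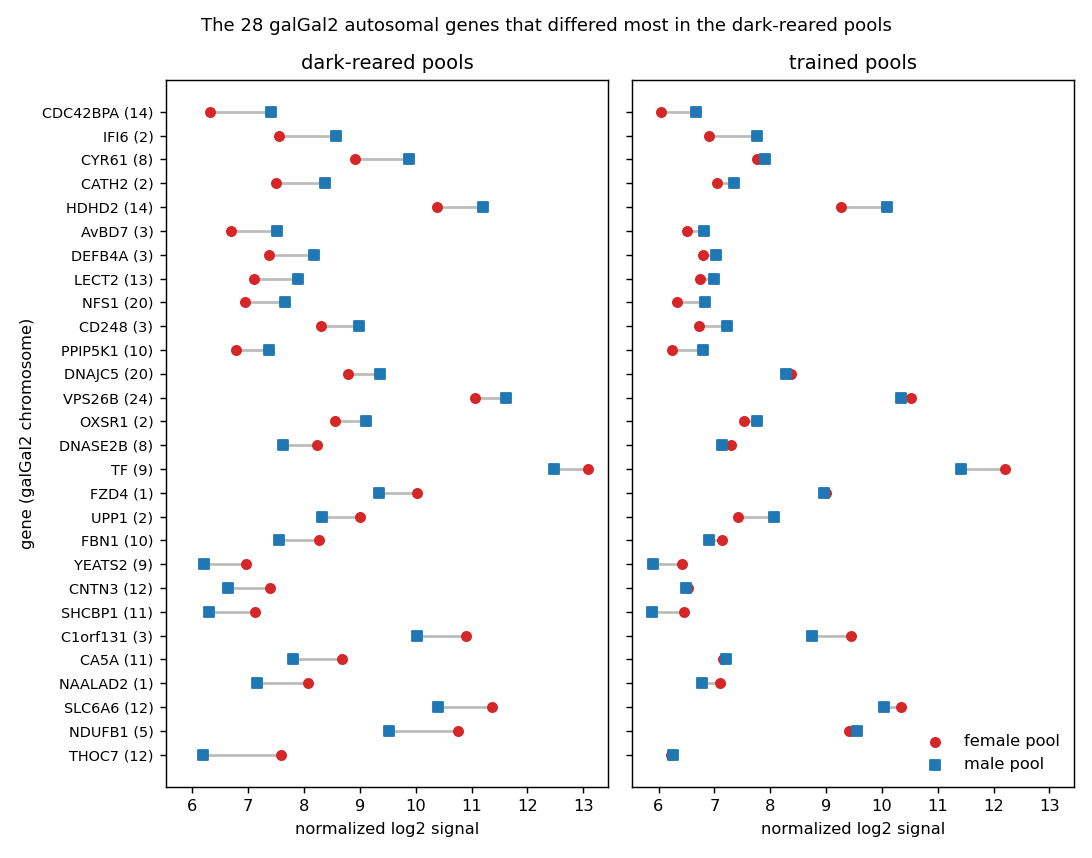
Normalized log2 signal (horizontal axis) in the female pool (circles) and the male pool (squares) of the 14 galGal2 autosomal genes with the largest difference in each direction in the dark-reared pools (left) and of the same genes in the trained pools (right); chromosomes are in brackets. IFI6 and TF keep a separation in the trained pools, while the symbols of THOC7 and NDUFB1 lie close together there.

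Of the autosomal genes at least 1.5-fold higher in males, 4 code for antimicrobial or granule proteins, a grouping made after their values were seen. CATH2, a cathelicidin stored in granules of heterophils, the avian counterpart of neutrophils, read 7.50 in females and 8.37 in males (1.83-fold; chr2:3489690-3489749). AvBD7, a beta-defensin, read 6.69 and 7.52 (1.77-fold; chr3:105344827-105344886). DEFB4A in RefSeq, which the array calls gallinacin GAL2, has its probe nearby and read 7.37 and 8.17 (1.75-fold; chr3:105355285-105355343). LECT2, a secreted chemotaxin and granule protein of chicken myeloid cells, read 7.11 and 7.89 (1.71-fold). In the trained pools the same genes differed by 0.30, 0.31, 0.25 and 0.25, toward males and below 1.5-fold. In bulk RNA a larger number of cells of a type and more RNA per cell cannot be told apart.

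A list of 18 heterophil granule and antimicrobial genes was assembled after these values were seen, and 12 of them were on the array and measured. The 4 past 1.5-fold were those just named. The median was 0.14, a value that includes these 4 genes, which prompted the list. CATH1 differed by 0.45, AvBD1 by 0.16 and LYG2 by 0.12. LYZ, lysozyme, was at -0.26, AvBD4 at -0.11, MMP9, gelatinase B, at -0.07, S100A12 at 0.07 and CSF3R, the receptor of granulocyte colony-stimulating factor, at 0.07. Of 10 blood cell markers on the array 7 were measured, and none passed 1.5-fold. Of all 7048 genes with autosomal neighbours, 0.156% passed it toward males and 0.213% toward females. The median of the blood cell markers was -0.12, with HBBA, an adult globin, at -0.27. That median is the value of ALAS1, which the naming put in place of the listed marker ALAS2. Of 13 microglial and macrophage markers on the array 11 were measured, with a median of 0.01 and a range of -0.15 (MARCO) to 0.28 (CTSS), while CX3CR1 and PTPRC were not well above background in both pools. The part of blood or myeloid cells in these differences was not tested.

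Other autosomal genes higher in males belonged to no single group. CDC42BPA, a kinase that acts downstream of CDC42 on the actin cytoskeleton, had the largest difference, 6.31 in females and 7.41 in males (2.14-fold; chr14:19830949-19831008 in galGal2). Its dim female signal makes the size depend on the background correction, with a log2 difference of 1.10 here and 2.14 on the processed signals. IFI6, an interferon-stimulated gene named ISG12-2 on the array, read 7.55 and 8.56 (2.02-fold; chr2:89610413-89610472). CYR61, a matricellular protein and immediate early gene, read 8.91 and 9.88 (1.97-fold; chr8:16529235-16529294). NFS1, the cysteine desulfurase of iron-sulfur cluster assembly, differed by 0.73, and PPIP5K1, an inositol phosphate kinase, by 0.59. The probe named CD248 in RefSeq and CD93 on the array differed by 0.69. DNAJC5, the cysteine string protein of synaptic vesicles, reached 1.49-fold. PMM2, phosphomannomutase 2, which galGal2 leaves unplaced and which has autosomal neighbours, had the largest male excess of any named gene, 7.18 in females and 8.78 in males, a difference of 1.60 against 0.11 in the trained pools.

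The autosomal genes higher in females, named by rank, had varied roles. THOC7, of the THO complex of mRNA export, read 7.58 in females and 6.19 in males (2.62-fold higher in females; chr12:13515648-13515707), and its dim male signal makes the size depend on the background correction, with a difference of -3.49 on the processed signals. NDUFB1, an accessory subunit of respiratory complex I, read 10.76 and 9.52 (2.36-fold; chr5:41386753-41386853). It was the only gene past 1.5-fold toward females among 28 measured respiratory chain and ATP synthase genes, whose median was -0.04. Of all 7048 genes with autosomal neighbours, 0.213% were past 1.5-fold toward females. SLC6A6, the taurine transporter, read 11.37 and 10.39 (1.97-fold; chr12:11029855-11029914). NAALAD2, a peptidase of the N-acetylaspartylglutamate family, differed by -0.92 and CA5A, a mitochondrial carbonic anhydrase, by -0.88. CNTN3, a contactin of neuronal surfaces, was at -0.75, YEATS2, a histone-binding protein of an acetyltransferase complex, at -0.75, and SHCBP1 at -0.82. YEATS2 and SHCBP1 were also dim in males, at 6.20 and 6.30, and differed by -2.36 and -2.20 on the processed signals. FZD4, a frizzled receptor, read 10.02 in females and 9.34 in males, a difference of -0.67. UPP1, uridine phosphorylase, read 9.01 in females and 8.32 in males, a difference of -0.68 that had the opposite sign, 0.63, in the trained pools. FLNC, filamin C, unplaced in galGal2 and with autosomal neighbours, was at 11.91 in females and 10.97 in males.

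The largest autosomal differences were on probes without a gene symbol. Over all chromosomes 18708 kept probes had no symbol and 8426 had one, and a larger set can hold larger extremes. A_87_P038849 on chromosome 3 read 8.22 in females and 6.36 in males and differed by -0.01 in the trained pools. On chromosome 1, A_87_P006832 was 1.48 higher in males and A_87_P007385 1.44, with trained values of -0.87 and -0.07. Neighbouring probes at chr3:18186095-18186154 and chr3:18184787-18184846 were both higher in dark-reared males, by 1.25 and 1.02, and differed by 0.06 and -0.09 in the trained pools. A_87_P001292 at chr3:36846331-36846390 lies beside the probe of C1orf131 at chr3:36840330-36840389, and both differed by -0.88. On Z, A_87_P004268 at Z:4849565-4849624 read 6.35 in females and 9.12 in males, the largest male excess of any kept probe, while A_87_P018403 at Z:12043320-12043379 read 8.50 and 6.88, higher in females. Both kept their sign in the trained pools, with 2.05 and -0.80.

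TF, transferrin, an iron carrier that oligodendrocytes and blood plasma supply, read 13.09 in females and 12.47 in males, a difference of -0.62 (chr9:9014962-9015021). The other 7 measured oligodendrocyte markers lay between -0.15 and 0.09, including the myelin gene MBP at 0.04 and SOX10 at 0.09, and the list median was -0.02. In the trained pools TF differed by -0.80, and the list median was -0.22. The part of oligodendrocytes in the difference of TF was not tested.

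Set beside the trained pools, which are other chicks read on the same arrays and spots, the Z-linked genes were higher in males again. Of the 104 Z-linked genes at least 1.5-fold higher in dark-reared males and measured in both trained pools, 104 were higher in trained males and 68 were again past 1.5-fold. Of all 321 Z-linked genes measured there, 91.9% were higher in trained males and 23.1% were past 1.5-fold toward males. Of the 22 autosomal genes past 1.5-fold and measured there, 10 of 10 male-biased genes kept their sign and 2 were again past 1.5-fold. Of the 12 female-biased ones, 8 kept their sign and 2 were past 1.5-fold. Of all 6273 autosomal genes measured there, 48.4% were higher in trained males and 51.4% in trained females. Past 1.5-fold in the trained pools were 0.128% of them toward males and 0.0797% toward females. As a description across genes, Pearson's r between both differences was 0.90 over 321 Z-linked genes and 0.29 over 6273 autosomal genes, which share arrays, spots and probe sequence. The genes with autosomal neighbours past 1.5-fold in the same direction in both comparisons were IFI6 (1.02 dark-reared, 0.87 trained), CDC42BPA (1.10 and 0.64), TF (-0.62 and -0.80), C1orf131 (-0.88 and -0.69) and FLNC (-0.94 and -0.77). THOC7 and NDUFB1 differed by 0.05 and 0.14 in the trained pools, and CYR61 by 0.15.

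**Figure D4:**
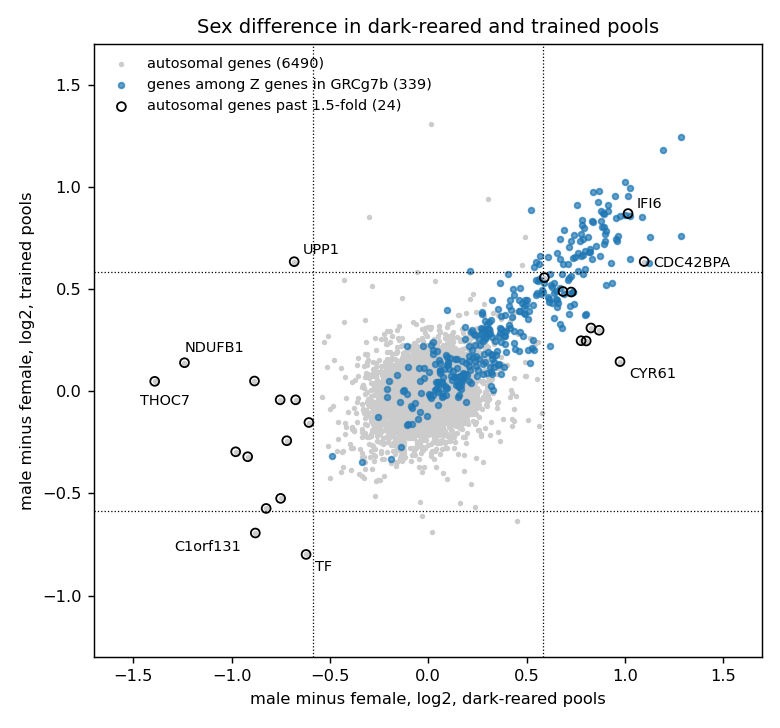
Male-minus-female difference (log2) of genes in the dark-reared pools (horizontal axis) and in the trained pools (vertical axis), for autosomal genes, Z-linked genes and, circled, autosomal genes past 1.5-fold in the dark-reared pools; dotted lines mark 1.5-fold. Z-linked genes lie along a diagonal (r = 0.90), whereas circled genes include THOC7 and NDUFB1 near 0 on the vertical axis and UPP1 with opposite signs; points not well above background in the trained pools are drawn but were left out of r.

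Outside the Z, few genes of the lists chosen for this tissue passed 1.5-fold, and few of all measured genes did. Over the 23 lists other than the heterophil list, 337 different genes were measured. Of the 32 that are Z-linked or on galGal2 Z, 13 were at least 1.5-fold higher in males and none in females, with a median of 0.45. The share higher in males was 30.7% over all 339 Z-linked genes. Among the other 305 genes, 1 was higher in males (CYR61) and 2 in females (NDUFB1 and TF), with a median of -0.01. Over all 7048 genes with autosomal neighbours the shares past 1.5-fold were 0.156% toward males and 0.213% toward females. The lists were chosen with earlier results of these data known, so these shares cannot rank the lists against the array. The 22 lists with at least 5 such genes, the heterophil list among them, had medians over these genes from -0.12 (blood cell markers) to 0.14 (heterophil genes). The heterophil list holds the genes that prompted it.

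**Figure D5:**
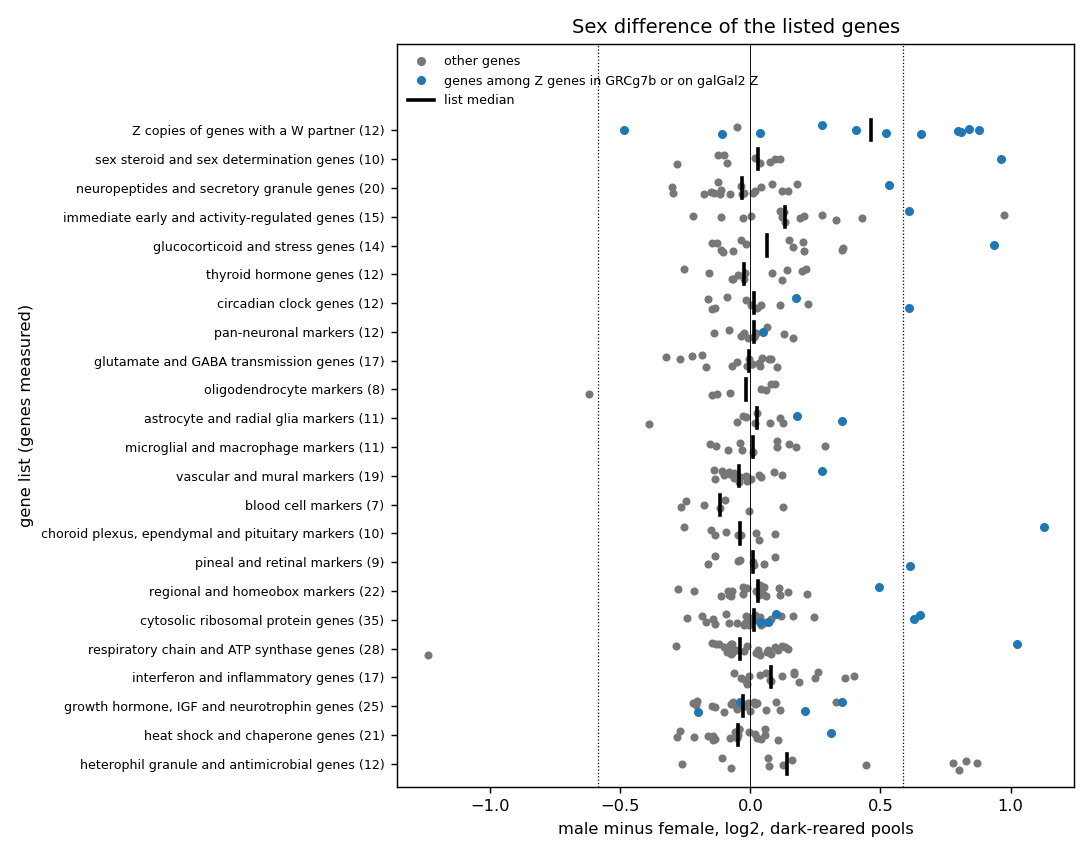
Male-minus-female difference (log2, horizontal axis) of each measured gene by list (vertical axis, number measured in brackets), with Z genes coloured and the list median as a black bar; dotted lines mark 1.5-fold. Apart from CYR61, NDUFB1, TF and 4 heterophil genes, the points past 1.5-fold are Z genes.

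Sex steroid and sex determination genes differed little. CYP19A1, the aromatase gene, read 7.19 in females and 6.91 in males, a difference of -0.28, and had -0.26 in the trained pools. ESR2, an oestrogen receptor, was at 0.09, NR5A1, a steroidogenic transcription factor, at -0.10 and SOX9 at 0.08. ESR1, the other oestrogen receptor gene, was not well above background in both pools. Of the 10 measured, HSD17B4 alone passed 1.5-fold, and the median was 0.03. HSD17B4 is Z-linked, and 30.7% of all 339 Z-linked genes were at least 1.5-fold higher in males.

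The 15 immediate early and activity-regulated genes had a median of 0.13, against 0.01 in the trained pools. Of these genes 12 were above 0 and 3 below, with NPTX2 lowest at -0.22 and ARC at -0.11. The spike-in transcripts were 0.071 to 0.15 higher on the male array, a range that holds the median of 0.13. EGR1 read 8.13 in females and 8.32 in males, BDNF 9.60 and 9.93, and BTG2 differed by 0.43 while its trained value was -0.13. Besides CYR61, the list member past 1.5-fold was NFIL3, a Z gene. Of 14 glucocorticoid and stress genes only the Z-linked CRHBP passed 1.5-fold, as 30.7% of all 339 Z-linked genes did toward males. The list had 7 genes above 0 and 7 below, and its median without Z genes was -0.02. CRHR2 was at -0.15, NR3C1 at -0.13 and CRH at -0.11. MT4, a metallothionein, was at 0.35 and PDK4 at 0.36, with trained values of -0.20 and 0.37.

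Neuropeptide genes had a median of -0.03 over 20 genes, with GAL, galanin, and CHGB, a granin of secretory granules, both at -0.30. Interferon and inflammatory genes had a median of 0.08 over 17, none past 1.5-fold. Of all 7048 genes with autosomal neighbours, 0.156% were past it toward males and 0.213% toward females. IFIT5 was at 0.40 and OASL at 0.36, while IFI6 stands outside this list. DIO2, which activates thyroid hormone, was at 0.21. Glutamate and GABA transmission genes (17 measured, median -0.0037) ran from -0.32 for GABRA3, a GABA-A receptor subunit, to 0.10 for SLC6A9, a glycine transporter.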

How the data were processed

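RNA of 4 pools, each of 8 chicks, was hybridised to 2 two-colour arrays; the Cy5 channel held the dark-reared pools. The deposited values are scanner intensities, the mean spot and median local background intensity of each channel, made by the authors with Agilent Feature Extraction (9.5.3.1 per the file headers, 8.5.1.1 per the submitters' processing notes). The array design follows galGal2, per the file headers. Both arrays share a slide and scan.

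Red mean intensities were corrected with normexp (offset 50) and quantile normalized between the arrays (limma 3.58.1 and data.table, version 1.17.8, R 4.3.3). Control spots and outlier flags were left out, and probes well above background on both arrays were kept. Tables and plots used python 3.11.15, numpy 2.4.6, pandas 2.3.3 and matplotlib 3.10.9. The script was tested on simulated data. The offset of 50 compresses the differences of dim probes. The trained channel was treated in the same way. Genes were named through RefSeq accessions and gene numbers, then array symbols, and 31889 probes stayed unnamed. A gene is represented by its brightest kept probe. Neighbours were counted in GRCg7b over up to 20 genes on each side, at least 10 being required.

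With 1 pool and 1 array per sex no test was run, and the number of arrays limits the precision. A threshold of 1.5-fold was used for counts. Named genes were the 14 autosomal genes with the largest difference in each direction, the highest and lowest Z genes, W-related probes, list extremes and members past 1.5-fold, genes with every probe past it, the largest bounds, and a set of sex, hormone and activity genes. The heterophil list, PMM2, FLNC, unnamed probes and other list members were chosen after their values were seen. The members and lists were chosen with earlier results of these data known. Alternatives were another offset, plain subtraction, the software's processed signals, a median shift, cyclic loess, loess with Aquantile, no filter, a stricter filter, 2-fold, genes in place of probes, the median over probes and, chosen after seeing the data, genes with autosomal neighbours. The deposited log ratios within arrays were not used here. Some results are not reported here.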

Additional observations from a re-analysis of the deposited data

Results flagged for a closer look

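UPP1, uridine phosphorylase (probe at chr2:79925199-79925258 in galGal2), differed between the sexes in opposite directions in the dark-reared and the trained pools. In the dark-reared pools it read 9.01 in females and 8.32 in males, a difference of -0.68. In the trained pools it read 7.43 in females and 8.06 in males, a difference of 0.63. Each value rests on 1 probe and 1 pool, and the difference between the comparisons was not tested.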

How the results depend on the processing

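No paired analysis was possible because each sex is 1 pool on 1 array and no result comes from a test. No named gene changed sign under the alternatives run. The autosomal median, -0.0080, was 0.0023 with cyclic loess, and the Z median and that of sequences labelled W stayed above 0. With an offset of 16, 125 probes were higher in females, and 108 and 86 autosomal probes were higher in males and females. With plain subtraction the counts were 1129 and 692 over all probes and 541 and 535 over autosomal ones, with medians of 0.43 on Z and 0.72 on sequences labelled W. With the processed signals they were 914 and 454, and 377 and 340, with medians of 0.44 and 0.73. Without a filter on dim probes the median on sequences labelled W was 0.29. In the brighter part of the kept probes it was 0.68, with 210 and 29 probes, 18 and 18 of them autosomal, and 67 of the 109 named genes were left. At 2-fold the counts were 50 and 23, and 12 and 11. Counted as named genes, 11 and 14 autosomal genes passed, and 10 and 14 of those with autosomal neighbours, an alternative chosen after seeing the data. Of 57 named genes past 1.5-fold, 52 to 57 stayed past it under the other corrections and normalizations. The lower offsets and processed signals move dim probes most: 37 of the 109 named genes moved with plain subtraction and 35 with processed signals, against 0 with the median shift or cyclic loess.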
